A study of Mus musculus with 6 samples.

Results

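ATP-binding cassette (ABC) transporters were examined in whole pancreas of mice lacking Rkip-1, a protein that inhibits the kinase Raf-1, and of wild-type mice. Members were taken as array probe sets whose platform annotation names a single gene with an Abca to Abcg symbol, 1 Abcc gene being left out by that rule and not analysed here. This gave 44 genes with 90 probe sets, out of 18193 genes with a single-symbol probe set and 45037 probe sets tested in all. The knockout group (KO) was 3 samples of Rkip-1 KO mice and the wild-type group (WT) 3 samples of WT mice from 1 colony, all 8 weeks old and on a C57BL/6 background, and the labels give no treatment. Each sample was total RNA of whole pancreas on 1 array. The labels do not say which part of the gene was removed, nor in which cells, and give no sex, litter or scan batch. Samples are called biological replicates without the number of mice in each. The p-values set differences between genotypes against the spread between samples, which in the limma test is moderated over all probe sets.

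ABC proteins bind and split ATP, and most use it to move lipids, bile salts, conjugated drugs, peptides or ions across a membrane. They fall into subfamilies a to g by the sequence of the ATP-binding part. The Abca and Abcg groups hold exporters of cholesterol and phospholipid, and Abcb holds drug and bile pumps together with mitochondrial transporters. Abcc holds the multidrug resistance proteins, which export organic anions such as glucuronide and glutathione conjugates. Abcd proteins sit in peroxisomes or lysosomes, and Abce and Abcf proteins have no membrane part and act on ribosomes. In the pancreas such proteins serve the ducts, the vessels and the potassium channels of islets and smooth muscle.

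Values are log2 probe set intensities after RMA (robust multi-array average), which equalises the arrays. Array medians ranged from 2.97 to 3.02 and upper quartiles from 4.53 to 4.56. A gene was read at the brightest of its probe sets, and 19 of the 44 genes had a mean above 4.54, the middle of the arrays' upper quartiles, while 25 lay below it. Without detection calls, a level near the array median cannot be told from background, and a fold against a level under the upper quartile can be too small. Arrays of the same genotype correlated at 0.991 to 0.993 and arrays of different genotype at 0.989 to 0.992. The 8 measured acinar markers all lay above the upper quartile, and Pebp1, which encodes Rkip-1, measured 5.71 to 6.498 in KO and 9.81 to 10.01 in WT. These KO values still lay above the upper quartile. A second Pebp1 probe set measured 2.76 to 3.56 in KO and 8.45 to 8.58 in WT. Both probe sets were lower in every KO array than in every WT array. In whole tissue, fewer cells of a type and less RNA per cell cannot be told apart.

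One ABC gene rose in the KO pancreas. Abcc3, a basolateral exporter of glucuronides and bile acids known from liver and gut, passed the test, and the other 43 genes did not. Their differences between genotypes ran from -0.46 for Abca1 to 0.36 for Abcb10 on the log2 scale, with a lowest adjusted p of 0.389. The count of 1 in 44, or 2.27%, stands beside 0.132% of all genes past an adjusted p of 0.05 in limma's moderated test. Abcc3 was known from earlier results of these data to differ, so this share is a description. Over the 44 genes the median difference was 0.02, beside -0.00056 for all genes, with 24 genes higher in KO and 20 lower, or near an even split, as over all genes, where 50.2% were lower.

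**Figure D1:**
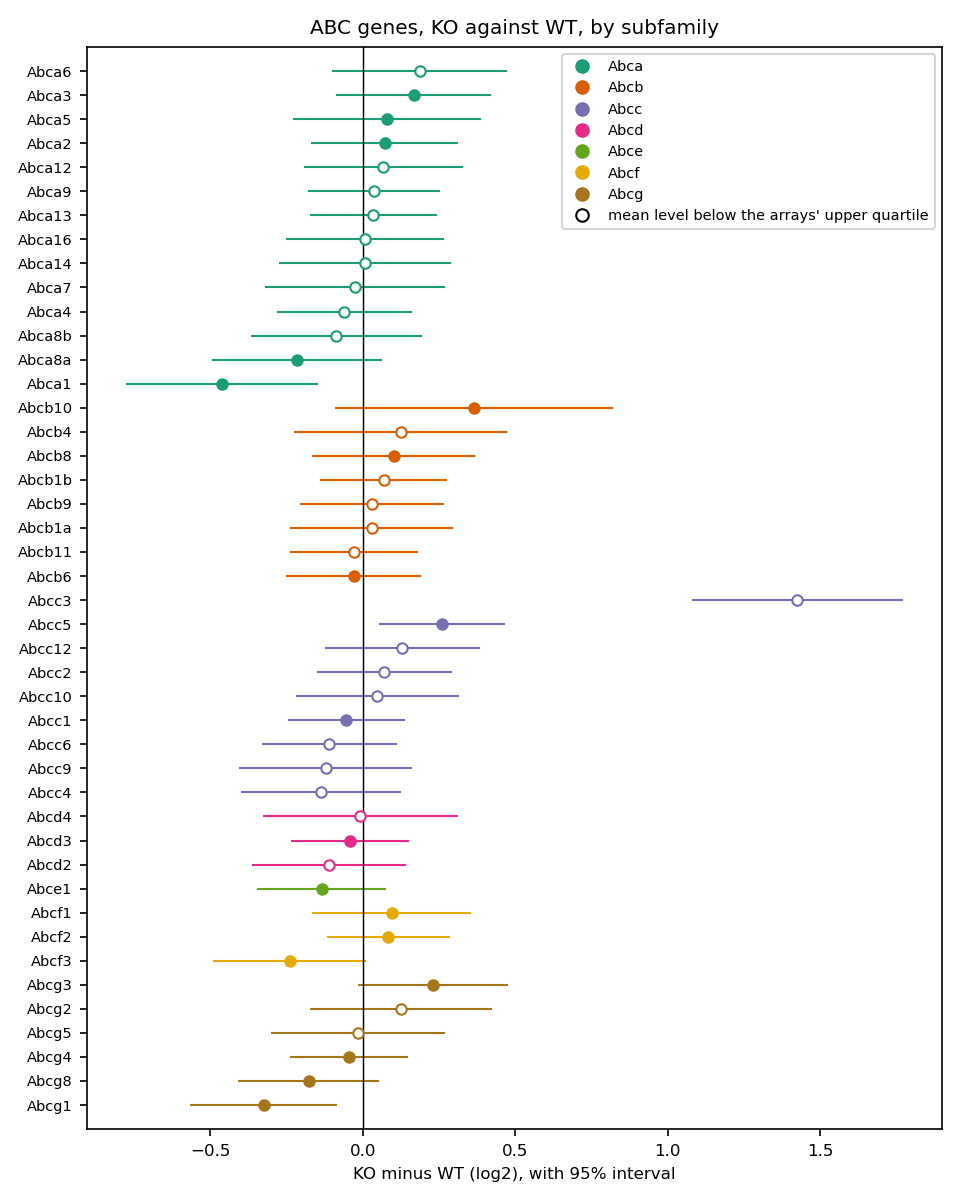
Log2 difference KO minus WT for each of the 44 ABC genes at its brightest probe set, by subfamily, with 95% intervals from limma (3 arrays per group). Open circles mark genes with a mean below the arrays' upper quartile; Abcc3, at 1.42, stands alone on the right, and the other genes lie between -0.46 and 0.36.

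Separate groups were no more frequent among the members than among all genes. The 3 KO and 3 WT values did not overlap in 5 of the 44 genes (11.4%), against 14.4% of all genes, and 4 of 44 (9.09%) had an unadjusted p under 0.05, against 10.1% of all genes. Of the 19 genes above the upper quartile, 4 (21.1%) had groups that did not overlap, beside 18.7% of all genes at such levels, and 3 (15.8%) had an unadjusted p under 0.05, beside 14.3%. These shares were near the background. The genes with separate groups were Abcc3, Abcc5 and Abcg3, higher in KO, and Abca1 and Abcg1, lower in KO.

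Abcc3 measured 4.78, 5.28 and 5.03 in KO replicates 1, 2 and 3, and 3.32, 3.71 and 3.79 in WT replicates 1, 2 and 3. All KO values lay above the arrays' upper quartiles and all WT values below them, though above the array medians. Group means were 5.03 ± 0.25 and 3.61 ± 0.25 (log2, mean ± SD, n = 3 each). The difference was 1.42, a 2.68-fold higher level. The fold had 95% bounds of 2.11 and 3.41, and limma's adjusted p over all probe sets was 0.0097. A single probe set represents the gene, so there is no second measurement of it on the array. With an array left out, Abcc3 kept a difference of 1.28 to 1.55 but did not pass without KO replicate 2 (adjusted p 0.0625), KO replicate 3 (0.0538) or WT replicate 2 (0.0761), each in fits with 5 arrays.

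**Figure D2:**
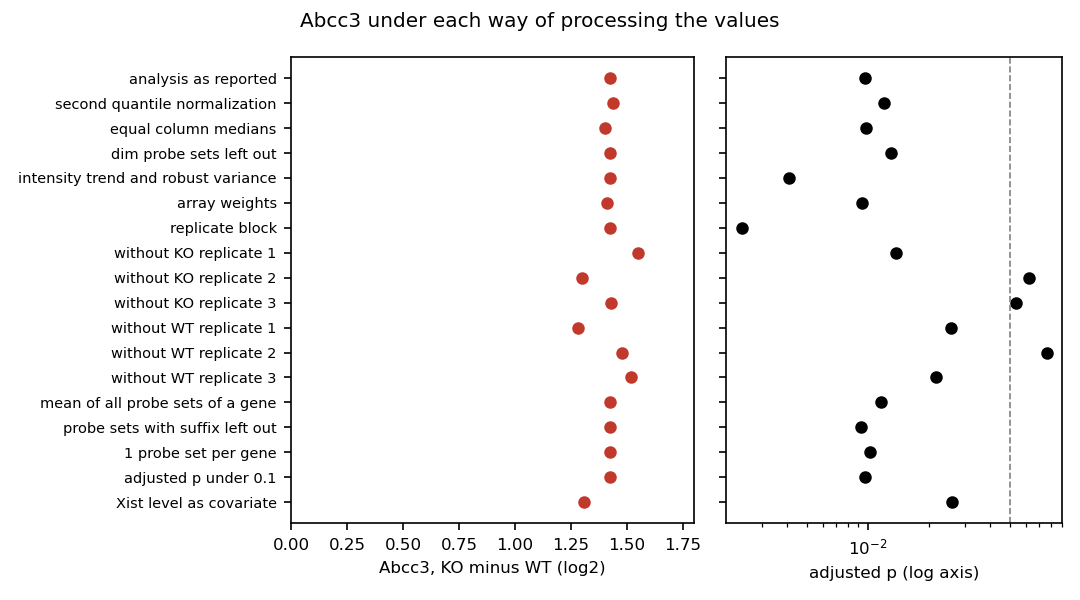
Abcc3 under each way of processing the values: the log2 difference KO minus WT (left) and the limma adjusted p on a log axis (right, dashed line at 0.05). The difference stays between 1.28 and 1.55, and the adjusted p lies above 0.05 in 3 of the fits that leave an array out, reaching 0.0761.

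The female transcript Xist was high in 2 KO arrays and 1 WT array and low in the others. Within arrays of high Xist the Abcc3 difference was 1.36, and within arrays of low Xist it was 1.27, each from 3 arrays and without a test. Abcc3 is best known from hepatocytes and enterocytes, and most markers of those cells lay below the upper quartile. Of 9 measured hepatocyte markers 2, Apoa2 and Tat, lay above the upper quartile on average. List means were 3.11 to 3.27 in KO and 3.09 to 3.23 in WT. Albumin (Alb) measured 3.95 to 4.44 in KO and 3.74 to 4.51 in WT. Of 9 enterocyte markers 1, the widely expressed peptidase Anpep, lay above it, with list means of 2.96 to 3.05 and 2.94 to 2.96. The enterocyte genes Fabp2, Lct, Apoa4, Cdx1 and Cdx2 lay below the array medians in all arrays. Vil1, at 3.20 to 3.51, and Mep1a, at 3.23 to 3.47, lay above the medians and under the upper quartiles. Lgals4 lay around the medians. The part of hepatocytes and enterocytes in the Abcc3 result was not tested.

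Duct markers differed in both directions without passing. Of 8 measured, 4 were higher and 4 lower in KO, none passed by limma, and 3 had an unadjusted p under 0.05. Over the marker lists of all cell types 13 of 82 genes (15.9%) did, beside 10.1% of all genes and 14.3% of those above the upper quartile. The list means overlapped, at 5.97 to 6.19 in KO and 5.98 to 6.03 in WT. Muc1, a surface mucin, measured 8.91, 9.23 and 9.29 in KO and 8.52, 8.63 and 8.51 in WT (adjusted p 0.177), and the duct transcription factor Sox9 measured 6.42, 5.80 and 6.13 against 5.78, 5.39 and 5.62 (adjusted p 0.389). Both separated the genotypes in the direction of Abcc3, and the duct enzyme Car2 separated them in the other, at -0.37. The part of duct cells in the Abcc3 result was not tested. The protein-coding neighbours of Abcc3 in the mouse gene order that were measured, Luc7l3, Ankrd40, Cacna1g and Epn3, differed by -0.07, -0.11, -0.05 and 0.01, and none passed.

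The other 8 Abcc genes showed no such difference. Their median difference was -0.00368, from -0.14 for Abcc4 to 0.26 for Abcc5, and no 95% interval among them reached beyond -0.41 or 0.46. Abcc3 minus the median of these 8 genes was 1.15, 1.91 and 1.498 in KO replicates 1, 2 and 3, and -0.16, 0.18 and 0.12 in WT replicates 1, 2 and 3. The groups lay 1.47 apart. Set against each gene alone, the shift of Abcc3 was larger by 1.17 (against Abcc5) to 1.56 (against Abcc4), and in 8 of 8 pairs the KO and WT arrays did not overlap. The exact two-sided permutation p was 0.1 for each pair, the smallest that 3 against 3 arrays allow, and 0.1 after adjustment over the 8 pairs, which all share the Abcc3 values. These pairs therefore could not pass 0.05. Abcc3 was known beforehand to differ, so the 8 of 8 pairs restate its difference and are no further support for it.

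**Figure D3:**
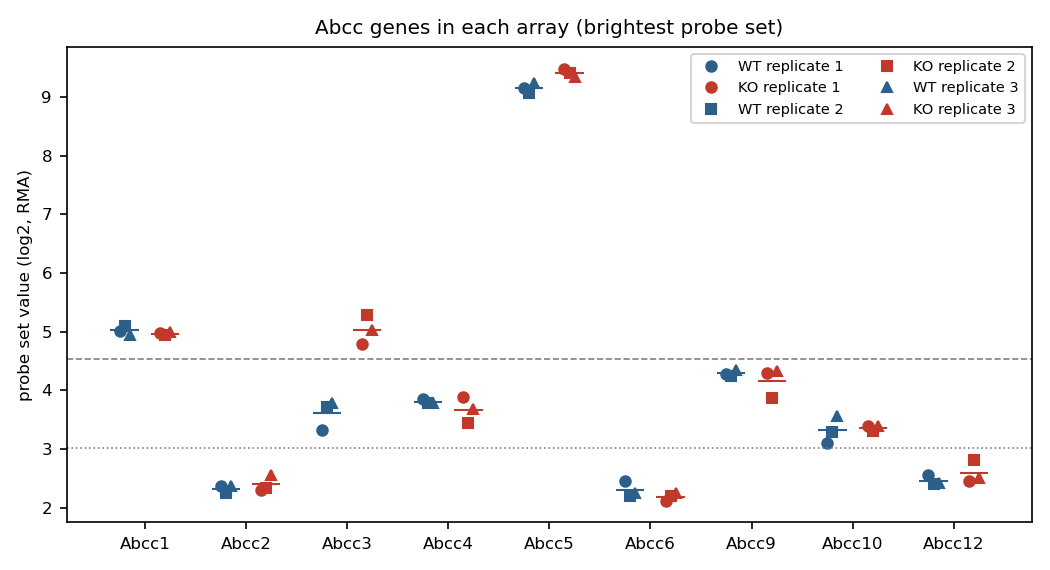
Probe set values (log2, RMA) of the 9 Abcc genes in each array, WT in blue and KO in red, with a symbol per replicate and a line at each group mean. Dashed and dotted lines mark the middle of the arrays' upper quartiles (4.54) and medians (3.01); the red Abcc3 points lie between 4.78 and 5.28, all above the blue ones.

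Abcc5, an exporter of cyclic nucleotides and other organic anions, had the most probe sets of any member, 10. Its brightest measured 9.49, 9.41 and 9.34 in KO and 9.15, 9.06 and 9.25 in WT. Every KO array was above every WT array, by little. The difference was 0.26 (95% interval 0.05 to 0.46, adjusted p 0.463), and the gene did not pass. Of its 10 probe sets 7 were higher and 3 lower in KO, from -0.15 to 0.27, but 9 of them had means below the upper quartile, and the mean over all 10 differed by 0.08. With probe sets left out whose suffix marks several transcripts, the brightest that remained differed by 0.0034.

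Abcc1, an exporter of glutathione conjugates found in most tissues, measured 4.97, 4.94 and 4.99 in KO and 5.02, 5.10 and 4.95 in WT, a difference of -0.05 with an interval of -0.25 to 0.14. The groups overlapped. Abcc9, the sulfonylurea receptor of smooth muscle potassium channels, measured 3.88 to 4.34 in KO and 4.24 to 4.35 in WT, below the upper quartile in each array, and differed by -0.12. The pore subunit Kcnj8, which pairs with it in vessels, differed by -0.25 (adjusted p 0.568), and Kcnj11, the pore of the beta cell channel, by 0.21 (adjusted p 0.66). Pericyte and smooth muscle markers were lower in 8 of 8 genes, with list means of 4.92 to 5.08 in KO and 5.17 to 5.31 in WT and none past the test. Their median difference was only -0.05. Rgs5, Acta2 and Tagln differed by -0.48, -0.48 and -0.46, whereas Myh11, Pdgfrb, Cspg4 and Cnn1 differed by -0.03 to -0.02. Abcc4, another exporter of cyclic nucleotides, measured 3.44 to 3.88 in KO and 3.78 to 3.85 in WT. Abcc2, the apical counterpart of Abcc3 in bile canaliculi, measured 2.29 to 2.55 in KO and 2.25 to 2.37 in WT, under the array medians. Abcc6, Abcc10 and Abcc12 differed by -0.11, 0.05 and 0.13, with means under the upper quartile.

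Abca1 and Abcg1, which hand cholesterol to apolipoproteins and to high-density lipoprotein, were the members with the most negative differences, and neither passed. Abca1 measured 5.81, 6.23 and 5.83 in KO and 6.23, 6.62 and 6.39 in WT. The highest KO array lay just under the lowest WT array. Its difference was -0.46 (95% interval -0.78 to -0.15, unadjusted p 0.00879, adjusted p 0.389, limma with 3 arrays per group). The other Abca1 probe sets differed by 0.08 and -0.02 at levels under the array medians. Abcg1 measured 4.96, 5.18 and 4.92 in KO and 5.44, 5.40 and 5.20 in WT. The groups again did not overlap, with a difference of -0.33 (-0.57 to -0.08, adjusted p 0.426), and its second probe set differed by -0.14.

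Partners in cholesterol transport had mostly negative differences, and none passed. Of 9 measured, 8 were lower in KO, the median difference was -0.19, and list means were 6.10 to 6.32 in KO and 6.41 to 6.49 in WT. The gap between these means leaned on Apoa1 in 1 array. Apoa1 measured 5.74 in WT replicate 1, which had the lowest WT list mean, and 3.71 to 4.12 in the other arrays. Npc1, which moves cholesterol out of lysosomes, differed by -0.29 (adjusted p 0.395) and Lpl, a lipase of fat and muscle capillaries, by -0.46 (adjusted p 0.583). Nr1h3, the oxysterol receptor LXR-alpha that controls Abca1 and Abcg1, differed by 0.08. Both exporters are abundant in macrophages. Of 8 macrophage markers 5 were lower in KO, with list means of 4.27 to 4.58 in KO and 4.53 to 4.59 in WT, and adipocyte markers had list means of 4.06 to 4.98 and 4.64 to 5.39. KO replicate 1 had the lowest mean of both lists. The part of these cells in the Abca1 and Abcg1 values was not tested.

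The start regions of the genes with separate groups and an unadjusted p under 0.05 are shown where the RefSeq promoter table (GRCm38.p6) holds them. A reader may wish to see which common elements these regions carry. Abcg3, with separate groups but an unadjusted limma p of 0.0644, is not shown. The table matched 35 of the 44 genes, and the others were Abca6, Abcb8, Abcc1, Abcc3, Abcc6, Abcd2, Abcd4, Abcg1 and Abcg4. Each window of 300 bases runs 5′ to 3′ along the gene, from 250 bases before the annotated start to 50 after it. Abca1 is at chr4:53159846-53160145 and Abcc5 at chr16:20426345-20426644, both on the minus strand, and capitals mark matches to the motifs searched.
Abca1: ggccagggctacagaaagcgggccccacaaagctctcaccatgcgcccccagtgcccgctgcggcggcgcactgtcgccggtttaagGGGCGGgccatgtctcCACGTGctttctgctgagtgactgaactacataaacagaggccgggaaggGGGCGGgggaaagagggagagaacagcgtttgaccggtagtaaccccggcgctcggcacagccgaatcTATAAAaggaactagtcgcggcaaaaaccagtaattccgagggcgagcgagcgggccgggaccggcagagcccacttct
Abcc5: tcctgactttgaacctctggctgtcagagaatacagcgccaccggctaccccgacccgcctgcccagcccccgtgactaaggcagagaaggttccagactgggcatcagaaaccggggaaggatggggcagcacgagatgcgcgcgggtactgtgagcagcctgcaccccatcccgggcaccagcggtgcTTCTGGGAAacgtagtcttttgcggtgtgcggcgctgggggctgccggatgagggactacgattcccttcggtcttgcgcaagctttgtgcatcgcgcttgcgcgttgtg
In the Abca1 window, with the annotated start as position 0, GC boxes (GGGCGG) begin at positions -163 and -97, an E-box (CACGTG) at -147 and a TATA box (TATAAA) at -29. In the Abcc5 window a STAT-type match (TTCNNNGAA) begins at position -60. The matches do not overlap one another. On both strands, GC boxes occur in 35.7% of 32851 such windows, E-boxes in 7.15%, TATA boxes in 13.6% and the STAT-type motif in 8.3%. Neither window holds a CCAAT box (CCAAT, 37.4% of windows), an AP-1 site (TGANTCA, 7.81%) or the antioxidant element core (TGACNNNGC, 12.4%). Neither holds an exact match to AGGTCA (16.3%), letters that form part of nuclear receptor elements. Nuclear receptor elements with other letters were not searched for, so either window may hold them. A match is a stretch of letters and not a measured binding site.

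The remaining Abca genes, mostly lipid transporters, did not separate the genotypes at their brightest probe sets. Of these 13, 4 lay above the upper quartile on average, 9 differences were positive and 4 negative, and the median was 0.03. Abca3, which loads phospholipid into the lamellar bodies of lung, measured 6.23, 5.86 and 6.09 in KO and 5.99, 5.80 and 5.90 in WT, a difference of 0.17 with an interval of -0.09 to 0.42. Abca2, of lysosomal membranes, differed by 0.07 and Abca5 by 0.08. Abca7, a relative of Abca1 found in blood cells, measured 4.37 to 4.69 in KO and 4.27 to 4.65 in WT. In the gene order Abca5, Abca6, Abca9, Abca8a and Abca8b lie side by side. Abca5 and Abca8a were above the upper quartile in all 6 arrays, Abca8a at 5.47 to 5.65 in KO and 5.50 to 5.94 in WT, whereas Abca6, Abca9 and Abca8b were below it in all 6. A second Abca9 probe set measured 2.98 to 3.22 in KO and 2.72 to 2.84 in WT, with groups apart. Its difference was 0.35 near the array median (limma adjusted p 0.348), while the brightest differed by 0.04. Abca4, of the retina, and the skin lipid transporter Abca12 differed by -0.06 and 0.07, and Abca13, Abca14 and Abca16 by 0.03, 0.01 and 0.01, all under the upper quartile.

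Abcb genes showed no difference past the test in 8 of 8. Abcb10, a mitochondrial transporter linked to haem synthesis, had the largest difference of these, and it rested on 1 array. It measured 5.06, 5.22 and 5.36 in KO and 4.30, 5.08 and 5.16 in WT. Without WT replicate 1 the difference of 0.36 was 0.09. A second probe set repeated the low value of WT replicate 1, at 2.86 against 3.57 and 3.48. Abcb6, which carries porphyrins, measured 6.86, 6.96 and 7.09 in KO and 6.93, 7.11 and 6.96 in WT, a difference of -0.03 with an interval of -0.25 to 0.19. Abcb8, another mitochondrial member, differed by 0.10.

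Of 11 measured iron-sulfur and haem genes, which work beside these mitochondrial transporters, 8 were lower and 3 higher in KO. None passed. The iron-sulfur assembly factor Isca1 measured 8.43, 8.40 and 8.49 in KO and 8.70, 8.69 and 8.66 in WT, a difference of -0.24 with groups apart (adjusted p 0.44), and the haem enzyme Cpox differed by -0.27 (adjusted p 0.546). The drug pumps Abcb1a and Abcb1b, the bile phospholipid pump Abcb4 and the bile salt export pump Abcb11 were under the upper quartile in all arrays. Their differences were 0.03, 0.07, 0.12 and -0.03. Abcb1a, Abcb1b and Abcb4 are neighbours in the gene order. Abcb9, a lysosomal peptide transporter, differed by 0.03. Tap1 and Tap2, peptide transporters of the same subfamily under other names, differed by -0.21 and 0.27, neither past the test.

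Among Abcd genes Abcd3, a peroxisomal carrier of fatty acids and bile acid precursors, measured 8.198, 8.12 and 8.07 in KO and 8.11, 8.22 and 8.18 in WT. The groups overlapped closely, with a difference of -0.04 and an interval of -0.24 to 0.15. A second Abcd3 probe set near background differed by 0.27 (adjusted p 0.536). Abcd2, a peroxisomal fatty acid carrier, measured 2.11, 2.20 and 2.26 in KO and 2.08, 2.45 and 2.37 in WT, under the array medians, a difference of -0.11. Abcd4, of lysosomal cobalamin transport, differed by -0.01 near the array medians. Of 9 peroxisomal partners none passed, and Ehhadh, of peroxisomal beta-oxidation, differed by -0.27 (adjusted p 0.567) and the biogenesis factor Pex3 by -0.13 (0.776).

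The ribosome-associated members were well above the upper quartile and close between genotypes. Abce1, which splits ribosomes after termination, measured 8.03, 8.02 and 7.96 in KO and 8.11, 8.27 and 8.02 in WT, a difference of -0.14 with an interval of -0.35 to 0.08. Abcf1, a partner of initiation factors, measured 8.00, 7.89 and 8.13 in KO and 7.98, 8.06 and 7.70 in WT, and its 6 probe sets ranged from -0.10 to 0.09. Abcf2 differed by 0.08. Abcf3 measured 5.34, 5.27 and 5.42 in KO and 5.65, 5.73 and 5.36 in WT. Only WT replicate 3 entered the KO range.

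The Abcf3 difference was -0.24 (-0.49 to 0.01, adjusted p 0.596). Its other probe sets differed by -0.22 and -0.33, with groups apart in both, so that 3 of 3 probe sets were lower without passing. Of 7 ribosome recycling and initiation partners none passed, with a median of -0.03. Gcn1, a sensor of stalled ribosomes, differed by 0.23 (adjusted p 0.722) and the release factor Gspt1 by -0.11 (0.812).

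In the Abcg group 2 genes had separate groups in opposite directions, Abcg1 above and Abcg3. Abcg3, whose transport role is unclear, measured 5.17, 5.07 and 5.05 in KO and 4.65, 4.997 and 4.95 in WT. The difference of 0.23 (-0.02 to 0.48, adjusted p 0.607) included WT replicate 1, which was the lowest array. Abcg4, a sterol exporter best known from brain, measured 6.63, 6.62 and 6.61 in KO and 6.69, 6.58 and 6.73 in WT, a difference of -0.05. Abcg2, an efflux pump of ducts and vessels, measured 3.90 to 4.36 in KO and 3.81 to 4.01 in WT. Endothelial markers had list means of 4.23 to 4.35 in KO and 4.34 to 4.44 in WT, and islet markers 7.36 to 7.50 and 7.38 to 7.50.

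Abcg5 and Abcg8, which join into a sterol exporter of liver and gut, differed by -0.02 and -0.18 and did not pass. They are adjacent genes read away from each other, and their start windows overlap by 209 bases at chr17:84682962-84683170, shown on the plus strand with the 109 bases between the annotated starts in capitals.
Abcg5 and Abcg8: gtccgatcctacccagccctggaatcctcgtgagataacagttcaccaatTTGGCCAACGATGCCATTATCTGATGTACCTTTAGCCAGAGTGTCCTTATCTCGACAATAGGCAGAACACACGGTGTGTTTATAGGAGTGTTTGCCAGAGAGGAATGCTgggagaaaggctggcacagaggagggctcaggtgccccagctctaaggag
Abcg8 measured 4.39 to 4.59 in KO and 4.55 to 4.83 in WT, around the upper quartile, and Abcg5 measured 2.28 to 2.67 in KO and 2.39 to 2.71 in WT, under the array medians. At the level of Abcg5 a difference was not detectable.

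Over all 90 ABC probe sets 1 passed, that of Abcc3, against 0.0977% of all probe sets. The groups did not overlap in 13 (14.4%), beside 13.5% of all probe sets, and 9 had an unadjusted p under 0.05, beside 8.68%. The 46 probe sets that were not the brightest of their gene differed by -0.33 to 0.35 and none passed. Of the 44 genes 19 had a single probe set.

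**Figure D4:**
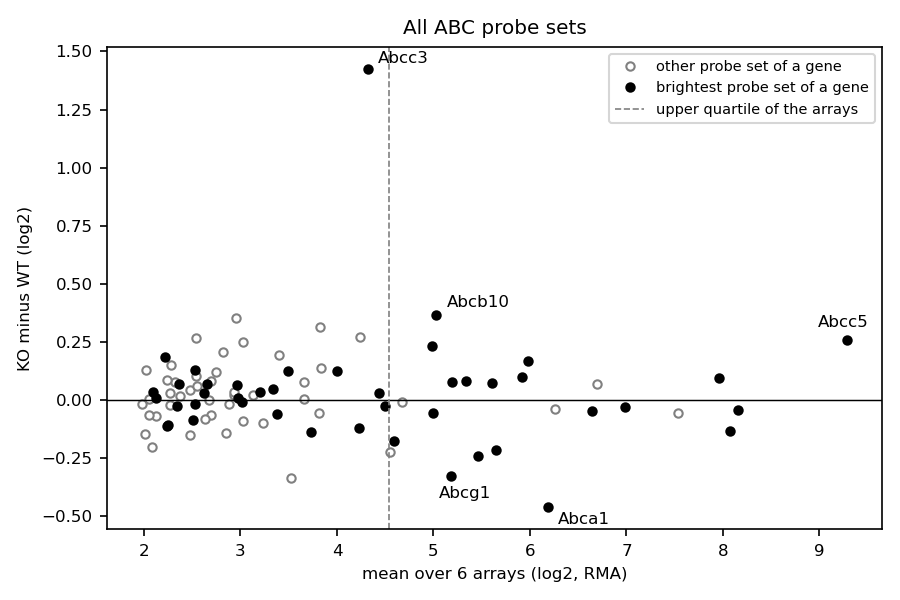
Log2 difference KO minus WT against the mean over 6 arrays for the 90 ABC probe sets, filled for the brightest probe set of a gene and open for the others; the dashed line is the middle of the arrays' upper quartiles. Abcc3 is the point at 1.42, and the other 89 points lie between -0.46 and 0.36.

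No gene of the lists that control, supply or work beside ABC transporters passed. Over 9 lists of such genes 87 of 97 were measured, 0 passed by limma and 6 had an unadjusted p under 0.05, 1 higher and 5 lower. That is 6.9% of them, against 10.1% of all genes. Of 14 transcription factors 9 were higher and 5 lower, with a median of 0.02. Nfe2l2 (NRF2), a regulator of Abcc3, differed by -0.11, the bile acid receptor Nr1h4 (FXR) by 0.38 and the aryl hydrocarbon receptor Ahr by -0.35, with adjusted p of 0.901, 0.717 and 0.653. The xenobiotic receptors Nr1i2 (PXR) and Nr1i3 (CAR) lay under the array medians, at differences of 0.05 and 0.01. Nr5a2, a nuclear receptor of acinar cells, differed by -0.02.

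Carriers of bile acids and organic anions had 11 of 13 members higher and 2 lower, with a median of 0.03 and none past the test. Only 2 of these 13 lay above the upper quartile. Slc51a, a subunit of the basolateral bile acid exporter, differed by 0.16 and Slco1a1, an uptake carrier, by 0.11. Of 15 conjugating and antioxidant enzymes, which make the substrates of Abcc proteins, 11 were higher and 4 lower, with a median of 0.03. The glutathione transferase Gstm3 measured 4.07, 3.79 and 3.96 in KO and 3.52, 3.75 and 3.59 in WT. Its groups were just apart, with a difference of 0.32 (adjusted p 0.426), and the NRF2 target Nqo1 differed by 0.24 (adjusted p 0.661). The peptide loading list had 2 of 7 members higher and 5 lower, with Tapbp, which docks peptide receptors to Tap, at 0.27 (adjusted p 0.587) and the chaperone Pdia3 at -0.38 (0.611).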

How the data were processed

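The authors deposited log2 values of 6 Affymetrix arrays, which per the submitters' processing notes came from RMA with affy, 1 value per probe set and array. The version and the settings were not given in the sources used here, and raw scanner files were not used here. RMA equalises the arrays and hides any change that most genes share, and the number of arrays limits the precision. Of 45101 probe sets 64 controls were left out. Samples were grouped by the genotype in their titles.

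Each probe set was tested as KO minus WT with lmFit and eBayes of limma 3.58.1 (R 4.3.3), two-sided, without covariates, adjusted by Benjamini and Hochberg over 45037 probe sets. The threshold was an adjusted p of 0.05, and intervals are 95% from the moderated standard error. Genes were named from the platform annotation by single symbols, brought up to date through a RefSeq table (GRCm38.p6), and read at the brightest probe set. No ABC symbol changed on update.

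Members and lists were chosen with earlier results of these data known. Values per array are given for Abcc3 and other Abcc genes above the upper quartile, members with separate groups and an unadjusted p under 0.05, and the brightest and smallest-p member of each subfamily. From each companion list the 2 of smallest p are named. Other genes named, Abcg3 and the neighbours of Abcc3 among them, were chosen after their values were seen. The fit was tested on simulated data. Alternatives covered normalization, dim probe sets, variance model, array weights, replicate block, each array left out, choice of probe set, threshold and Xist as a covariate. Figures were drawn with matplotlib 3.10.9.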

Additional observations from a re-analysis of the deposited data

How the results depend on the processing

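Abcc3 was higher in KO under all 17 alternatives, with differences of 1.28 to 1.55 and adjusted p of 0.0024 to 0.0761. It passed in 14 of them and missed the threshold in 3 of the 6 fits with an array left out, where its difference ranged from 1.28 to 1.55. The count of ABC genes past the threshold was thus 0 to 1 with an array left out and 1 under the other alternatives. In the fits with 0 by limma, 5 ABC genes (11.4%, beside 8% of all genes) had an unadjusted p under 0.05 without KO replicate 2, 3 (6.82% beside 10.3%) without KO replicate 3 and 4 (9.09% beside 7.62%) without WT replicate 2. Abcc3 minus the median of the other Abcc genes was 1.28 to 1.65 over the 14 alternatives that give such a value, and array weights, the block and the Xist covariate do not apply to it. No companion gene passed under any of the 17 alternatives.

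Over all probe sets 44 passed, 16 to 41 with an array left out, 25 without probe sets whose suffix marks several transcripts, 22 with the Xist level as a covariate and 76 at an adjusted p under 0.1. The wider threshold admits more probe sets by definition. The other settings change the number of arrays or probe sets or add a covariate, and the cause of their shifts was not tested. The alternatives that use 1 value per gene give no count of probe sets. Among the other named ABC genes, none of which passed anywhere, small differences changed sign. Abcb6 ranged from -0.0903 to 0.027 with an array left out, being positive without KO replicate 1 or WT replicate 2, and Abcf1 from -0.0115 to 0.169, being negative without WT replicate 3. Under a second quantile normalization Abcb6 was 0.0411, Abcd3 0.0187 and Abcg4 0.0239, and Abcd3 was 0.112 by the mean of its probe sets. The cause was not tested.

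The replicate number as a block gave 33 probe sets and an adjusted p of 0.0024 for Abcc3. Deviations of KO and WT arrays with the same number correlated at 0.19, -0.03 and -0.08. Those with different numbers correlated at -0.16 to 0.18, the highest being KO replicate 2 with WT replicate 3. The numbers were therefore not taken to pair the samples, and a factor shared under other numbers was not tested. The signal over background limits the 25 ABC genes below the upper quartile, where a difference can be hidden.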
